A study of Mus musculus with 4 samples.

Results

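The genes described here encode 8 enzymes of triglyceride synthesis, namely Gpam, Agpat2, Agpat3, Lpin1, Lpin2, Lpin3, Dgat1 and Dgat2. They were chosen by symbol, through every probe set that the platform annotation assigned to a single one of these symbols, and made up 8 of 18193 genes and 18 of 34945 probe sets with 1 symbol. All 8 were measured, and no filter on low values was applied. Transcript levels of whole hearts at baseline were measured on Affymetrix 3' arrays, which read a transcript through sets of short probes. Knock-in mice with the GSK-3beta Ser9Ala replacement, at an age of 3.5 months, gave 2 arrays, and wild-type mice at an age of 3.6 months gave the other 2. The strain of all mice was given as C57B6. GSK-3beta is a protein kinase that phosphorylation of serine 9 inhibits, and the alanine replacement removes that site. Nothing in the labels tells whether arrays of a group come from different mice, and p-values therefore measure only the spread between arrays, which may be technical. Values are log2 expression values, and differences are knock-in minus wild-type on the log2 scale. In these whole-heart samples, fewer cells of a type and less RNA per cell cannot be told apart.

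Triglycerides are built on glycerol 3-phosphate in the endoplasmic reticulum and the outer mitochondrial membrane. Glycerol-3-phosphate acyltransferases such as the mitochondrial enzyme encoded by Gpam add an acyl chain and make lysophosphatidic acid, and the acylglycerolphosphate acyltransferases, among them those encoded by Agpat2 and Agpat3, add another and make phosphatidic acid. Lipins remove the phosphate to give diacylglycerol, and the diacylglycerol acyltransferases DGAT1 and DGAT2, which belong to unrelated protein families, complete the triglyceride. The heart burns fatty acids as its main fuel and keeps a small, rapidly turned over triglyceride store in lipid droplets. Phosphatidic acid and diacylglycerol are also branch points from which membrane phospholipids are made.

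The RefSeq promoter table matched 6 of the 8 genes by symbol, all but Dgat1 and Dgat2, and 4 stretches are shown for Gpam, whose knock-in values were lower, and for the lipins Lpin1 and Lpin2, whose probe sets are compared below. Each is the 250 bases before an annotated start in build GRCm38.p6, read 5′ to 3′ on the gene's strand, with capitals marking matches to CACGTG (the E-box), TCACCCCA (part of a sterol response element) or CCAAT, searched on both strands.
Gpam, upstream start, chr19:55127239-55127488, minus strand: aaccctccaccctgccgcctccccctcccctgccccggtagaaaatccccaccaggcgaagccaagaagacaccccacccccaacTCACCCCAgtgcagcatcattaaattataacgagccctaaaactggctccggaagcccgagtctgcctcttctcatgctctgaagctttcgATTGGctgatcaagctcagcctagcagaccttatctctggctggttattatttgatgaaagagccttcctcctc
Gpam, downstream start, chr19:55099478-55099727, minus strand: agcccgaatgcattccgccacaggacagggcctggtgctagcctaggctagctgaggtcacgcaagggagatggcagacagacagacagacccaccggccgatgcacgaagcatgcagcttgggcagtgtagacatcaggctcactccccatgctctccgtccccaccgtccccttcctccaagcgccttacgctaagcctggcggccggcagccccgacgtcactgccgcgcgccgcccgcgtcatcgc
Lpin1, chr12:16610967-16611216, minus strand: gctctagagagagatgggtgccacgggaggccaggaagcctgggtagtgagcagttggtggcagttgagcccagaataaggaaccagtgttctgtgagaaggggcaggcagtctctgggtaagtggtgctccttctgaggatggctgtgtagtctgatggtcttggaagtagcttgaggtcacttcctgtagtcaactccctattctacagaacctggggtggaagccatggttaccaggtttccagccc
Lpin2, chr17:71183282-71183531, plus strand: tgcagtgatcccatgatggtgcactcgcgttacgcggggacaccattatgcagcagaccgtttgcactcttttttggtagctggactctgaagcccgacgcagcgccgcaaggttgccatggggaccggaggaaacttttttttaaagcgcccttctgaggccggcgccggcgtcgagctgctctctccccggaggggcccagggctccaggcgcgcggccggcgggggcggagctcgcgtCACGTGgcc
TCACCCCA and, on the opposite strand, CCAAT stood before the upstream Gpam start and neither stood before the downstream one. CACGTG stood before this Lpin2 start, the most upstream of 3 in the table, with its first base 9 bases upstream. The other 2 Lpin2 stretches held no CACGTG, and the most downstream held CCAAT 3 times. None of these motifs stood in the Lpin1 stretch. Among 32851 RefSeq promoter stretches of the same length, TCACCCCA was found in 1.34%, CACGTG in 6.02% and CCAAT in 33.8%. The clock-related D-box TTATGTAA, found in 0.819% of stretches, was in none of the member promoters. These matches describe letters in the window and were not tested against the expression values. None of the 8 genes lies on chromosome 16, which carries Gsk3b.

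No enzyme of the route differed past the test, and the differences by the probe set of highest mean were small. For 6 of the 8 genes the knock-in mean was higher and for 2 lower, with a median difference of 0.06 among the members and 0.00024 over all genes. The lowest was -0.31 for Gpam and the highest 0.29 for Lpin2. The 95% confidence intervals of all 8 lay between -0.54 and 0.65, and the median absolute difference was 0.07, compared with 0.09 over all genes. At an adjusted p under 0.05 from limma, 0 of the 8 were called, where 0.0055% of all genes were called. That share is 1 gene, with an absolute difference of 1.67, and the highest difference over all genes, 2.84, was not called. A lack of calls here therefore does not show a lack of change. At an unadjusted limma p under 0.05, Dgat1 was higher and Gpam lower, in a background of 4.4% of genes higher and 2.99% lower. Without knock-in 1, 0 members were at that level, without knock-in 2 only Lpin2 was and without wild-type 2 only Gpam. With the probe sets of a gene averaged, Gpam and Agpat3 were lower at that level and Dgat1 was not. Both knock-in arrays lay above both wild-type arrays in 3 genes (background 19.6%) and below them in 1 (background 17%). With 2 arrays against 2, an exact permutation test cannot go below p = 0.333, so calls depend on limma's pooling of the spread over genes.

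**Figure D1:**
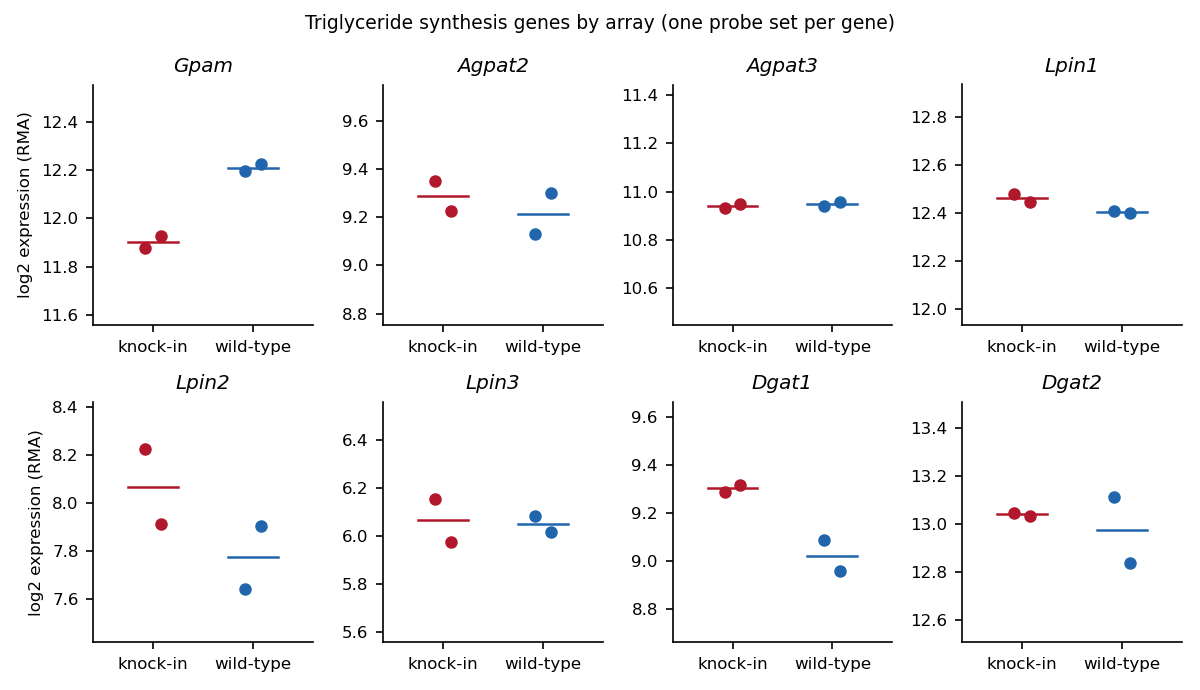
Log2 expression of the 8 genes, each by its probe set with the highest mean, in knock-in (red, left) and wild-type (blue, right) arrays. Points are arrays, lines are group means (n = 2 each), and every panel spans the same range on the vertical axis. Gpam lies lower and Dgat1 higher in both knock-in arrays, and the Agpat3 arrays lie together.

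Gpam encodes the mitochondrial acyltransferase of the committed step, an enzyme that in liver is raised by insulin and feeding. Its probe set with the highest mean, 1419499_at, stood at 11.88 and 11.93 in knock-in hearts, against 12.20 and 12.23 in wild-type hearts. Both knock-in arrays were below both wild-type arrays, and replicates of a group lay closer together than the groups. The means were 11.90 ± 0.03 in knock-in and 12.21 ± 0.02 in wild-type hearts (SD, n = 2 each), a 1.24-fold lower level in knock-in hearts. The difference of -0.31 had a standard error of 0.10 and an adjusted p of 0.522 from limma, and 3.17% of all genes had a smaller p. The other Gpam probe set, 1425834_a_at, stood at 7.493 and 8.997 in knock-in hearts, against 9.31 and 8.82 in wild-type hearts. Here knock-in 1 alone was low and knock-in 2 lay between the wild-type arrays, so the difference of -0.82 had a 95% interval from -1.95 to 0.31. RefSeq lists 2 curated Gpam transcripts, and both starts of the promoter stretches are shown above. The files do not say which start either probe set reports.

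Agpat2 and Agpat3 encode enzymes of the next acylation. Loss of AGPAT2 in humans causes generalized lipodystrophy, and AGPAT3 is a broadly expressed relative that also acts in phospholipid remodelling. The single Agpat2 probe set stood at 9.35 and 9.23 in knock-in hearts, against 9.13 and 9.30 in wild-type hearts. The groups overlapped, and the difference was 0.07 (95% interval -0.20 to 0.34).

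Agpat3 gave different answers by probe set. The probe set with the highest mean, 1450504_a_at, stood at 10.93 and 10.95 in knock-in hearts, against 10.94 and 10.96 in wild-type hearts, a difference of -0.0094. The arrays overlapped and spanned less than any other member's. Averaged over its probe sets, Agpat3 differed by -0.27 (adjusted p of 0.599 from limma). The other 3 probe sets were lower in both knock-in arrays than in both wild-type arrays. For 1433819_s_at the values were 8.90 and 8.92 in knock-in hearts, against 9.38 and 9.22 in wild-type hearts, a difference of -0.39. For 1433818_at they were 7.18 and 6.86 in knock-in hearts, against 7.52 and 7.39 in wild-type hearts, a difference of -0.44. For 1433817_at they were 9.24 and 9.13 in knock-in hearts, against 9.43 and 9.42 in wild-type hearts, a difference of -0.24. In a fit of all 45037 probe sets other than controls, limma gave unadjusted p-values of 0.0119 for 1433819_s_at, 0.0199 for 1433818_at and 0.0619 for 1433817_at, and adjusted values of 0.705, 0.777 and 0.868. Knock-in arrays lay below both wild-type arrays in 4 of the 18 member probe sets, 3 of them of Agpat3 and 1 of Gpam, in a background of 18.2%, and above them in 4, in a background of 15.7%. The gap between 1450504_a_at and 1433819_s_at on the same array was 2.03 and 2.03 in knock-in hearts, against 1.56 and 1.74 in wild-type hearts, so the groups differed unequally by probe set. An exact two-sided permutation test of that gap gave p = 0.333, the smallest it can give. RefSeq lists 1 curated Agpat3 transcript, and the stretch that each probe set covers was not used here.

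**Figure D2:**
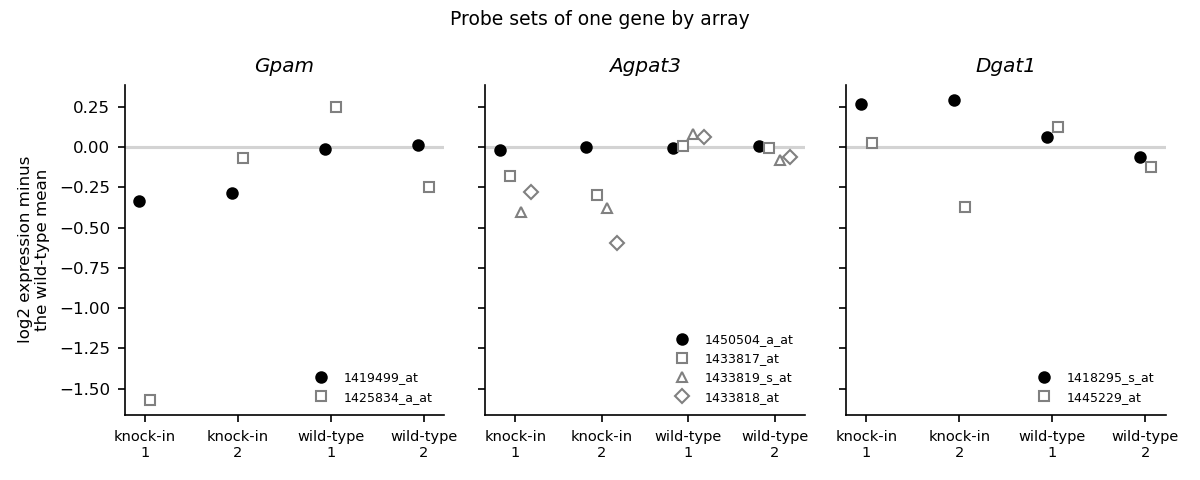
Log2 expression of each probe set of Gpam, Agpat3 and Dgat1 on each array, minus the mean of its wild-type arrays. Filled symbols are the probe set with the highest mean and open symbols the others. The open Agpat3 symbols lie below 0 in both knock-in arrays while the filled ones stay at 0, and the lowest point is the second Gpam probe set in knock-in 1.

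Lipins are phosphatidic acid phosphatases, and in mice lipin 1 provides most of that activity in heart and skeletal muscle. Lpin1 also encodes a transcriptional coactivator of PPARα with PGC-1α in mouse liver, where it is induced by fasting and glucocorticoids. The Lpin1 probe set 1418288_at stood at 12.48 and 12.45 in knock-in hearts, against 12.41 and 12.40 in wild-type hearts. Both knock-in arrays lay above both wild-type arrays, by a margin so small that the difference was 0.06 (95% interval -0.17 to 0.29). The other Lpin1 probe set, 1426516_a_at, stood at 11.75 and 11.83 in knock-in hearts, against 11.65 and 11.66 in wild-type hearts, a difference of 0.13. Both probe sets of Lpin1 were thus on the higher side in knock-in arrays, and neither passed.

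For comparison, 17 genes of fasting and glucocorticoid responses were listed with earlier results of these data known, of which 16 were measured. In 11 of the 16, both knock-in arrays lay below both wild-type arrays, and in 0 above (background 17% and 19.6%). The other 5, Klf15, Zbtb16, Per1, Fkbp5 and Fgf21, had overlapping groups and higher knock-in means, by 0.11 to 0.19. The median difference of that list, which does not hold Lpin1, was -0.45. Its members of smallest p were Ddit4, an inhibitor of mTORC1 (-1.34, adjusted p of 0.0724 from limma), and the mitochondrial carrier Ucp3 (-1.03, 0.0724), and none passed. Of 18 clock genes, 12 lay above and 3 below both wild-type arrays, led by Ciart (1.72) and Dbp (2.31), and none passed. Time of day and feeding state at collection are not in the labels, and the part of either in the members' values was not tested.

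Lpin2 encodes a lipin prominent in mouse liver, whose loss in humans causes Majeed syndrome, an inflammatory bone disease. Its probe set with the highest mean, 1452836_at, stood at 8.22 and 7.91 in knock-in hearts, against 7.64 and 7.90 in wild-type hearts. Knock-in 1 alone was clearly high, whereas knock-in 2 and wild-type 2 differed by less than the spread within either group. The difference of 0.29 (standard error 0.15, adjusted p of 0.733 from limma) was 0.14 without knock-in 1, 0.45 without knock-in 2, 0.16 without wild-type 1 and 0.43 without wild-type 2. The other 3 Lpin2 probe sets differed by 0.16 (1452837_at), 0.0075 (1460290_at) and -0.01 (1446316_at). Their means over the 4 arrays, 5.79, 5.87 and 3.59, lay below the array medians over all probe sets (5.97 to 6.04). Lpin3, the third lipin, stood at 6.15 and 5.98 in knock-in hearts, against 6.08 and 6.02 in wild-type hearts, with overlapping groups and a difference of 0.01. Its mean lay below the median over all genes of 7.11, where RMA gives a value without telling whether the transcript is present.

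Dgat1 encodes the acyltransferase of the endoplasmic reticulum that re-esterifies fatty acids taken up or released by lipolysis. Its probe set with the highest mean, 1418295_s_at, stood at 9.29 and 9.32 in knock-in hearts, against 9.09 and 8.96 in wild-type hearts. Both knock-in arrays were above both wild-type arrays. The means were 9.30 ± 0.02 in knock-in and 9.02 ± 0.09 in wild-type hearts (SD, n = 2 each), a 1.21-fold higher level in knock-in hearts. The difference of 0.28 had a standard error of 0.10 and an adjusted p of 0.598 from limma, and 5.24% of all genes had a smaller p. The other Dgat1 probe set, 1445229_at, stood at 6.21 and 5.82 in knock-in hearts, against 6.31 and 6.06 in wild-type hearts, a difference of -0.17 with overlapping groups. With both averaged, Dgat1 differed by 0.05. The direction for Dgat1 thus depended on the probe set, and the suffix of the brighter one, _s_at, marks probes that can match more than a single transcript.

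Dgat2 encodes the acyltransferase that in mouse liver and fat uses mainly newly made fatty acids and whose loss in mice nearly abolishes triglyceride stores. Its probe set 1422678_at stood at 13.05 and 13.03 in knock-in hearts, against 13.11 and 12.84 in wild-type hearts. The knock-in arrays lay between the wild-type arrays, and the difference was 0.06 (95% interval -0.23 to 0.36). The other Dgat2 probe set, 1422677_at, stood at 10.49 and 10.77 in knock-in hearts, against 10.84 and 10.33 in wild-type hearts, again with the knock-in arrays inside the wild-type range.

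**Figure D3:**
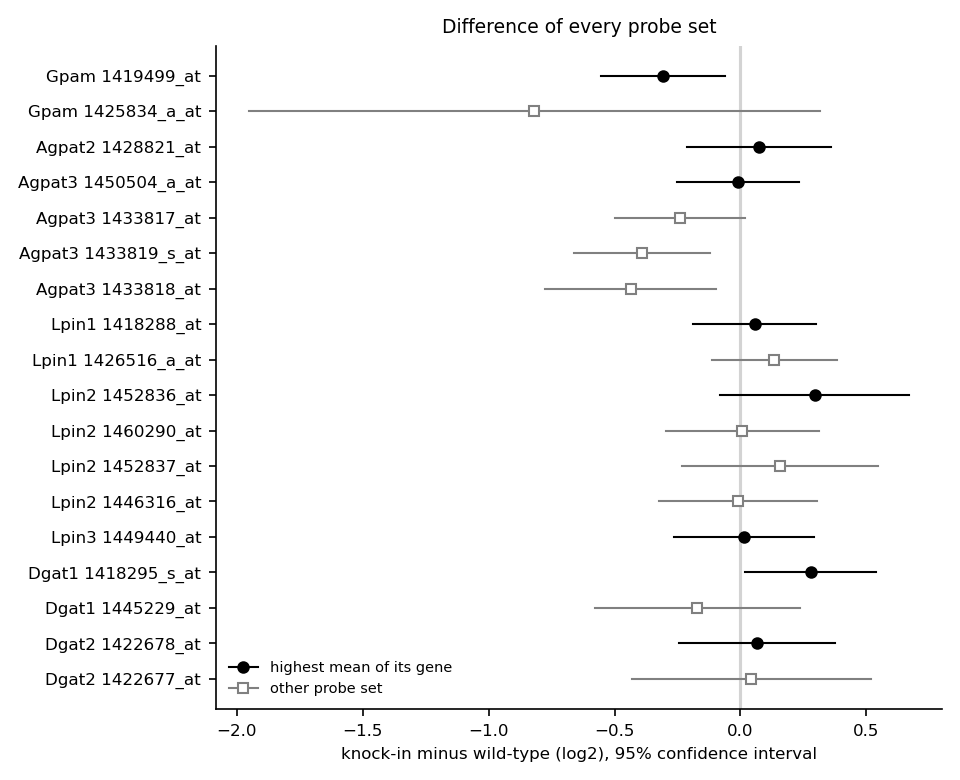
Difference between knock-in and wild-type hearts on the log2 scale for all 18 probe sets, with 95% confidence intervals from the limma fit over all probe sets. Filled circles are the probe set with the highest mean of each gene and open squares the others. The widest interval is that of Gpam 1425834_a_at, the Dgat1 probe sets fall on different sides of 0, and those of Agpat3 run from -0.44 to -0.0094.

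Several of these enzymes are abundant in liver and fat, so markers of those tissues were set beside them. All 15 measured hepatocyte markers were higher in both knock-in arrays (background 19.6%), with a mean log2 level of 7.20 and 7.71 in knock-in hearts, against 6.36 and 5.97 in wild-type hearts. Serpina1c, an alpha-1-antitrypsin gene, differed by 2.31 and was the hepatocyte marker of smallest p. Of 13 adipocyte markers, 3 were higher in both knock-in arrays, a share near the background of 19.6%, and 0 lower (background 17%). Car3, carbonic anhydrase 3, differed by 2.23, and its other 3 probe sets by 0.57, 0.26 and 0.04. Those at 0.26 and 0.04 lay below the array medians, with their highest arrays at 4.21 and 3.77. Adipoq, which encodes adiponectin, differed by 1.13, while leptin (Lep), chosen after its value was seen, differed by 0.03. Lep lay below the array medians, with its highest array at 4.47. The mean log2 level of the adipocyte list was 6.82 and 6.83 in knock-in hearts, against 6.58 and 6.47 in wild-type hearts. The median difference of that list, however, was 0.08, and 4 of the 13 were below 0. Of those below 0, Ucp1 and Cidec lay below the array medians, and Cidea and Fabp4 above them. All 12 cardiomyocyte markers had bright signals, with a mean log2 level of 14.01 and 14.05 in knock-in hearts, against 13.96 and 13.98 in wild-type hearts. All 12 had a higher mean in knock-in hearts, 8 of them without overlap (background 19.6%), with a median difference of 0.05. Among the members, by the probe set of highest mean, Dgat1, Lpin1 and Lpin2 were higher in both knock-in arrays and Gpam lower (background 19.6% and 17%). The part of these cells in the members' values was not tested.

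Around the 8 members, 8 lists of the same metabolism held 107 measured genes. None of the 107 passed over all genes (smallest adjusted p of 0.205 from limma), 9 were higher and 10 lower at an unadjusted p under 0.05 (background 4.4% and 2.99%), and their median difference was -0.03. The lists are described in the order of the route.

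The supply of glycerol 3-phosphate was measured through 8 genes. At an unadjusted p under 0.05, 0 were higher and 1 lower (background 4.4% and 2.99%). That gene was Aqp7, the glycerol channel, at 6.20 and 6.46 in knock-in hearts, against 7.01 and 6.98 in wild-type hearts (difference -0.67, adjusted p of 0.262 from limma). Both knock-in arrays were below both wild-type arrays in this probe set, while in the other the groups overlapped (6.23 and 6.42 in knock-in hearts, against 6.35 and 7.25 in wild-type hearts). The glycerol-3-phosphate dehydrogenases Gpd1l and Gpd1 differed by 0.13 and 0.14, and the glycerol kinase relative Gk5 by 0.10.

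Other acyltransferases of the route numbered 9, of which 1 was higher and 0 lower at that level (background 4.4% and 2.99%). It was Gpat3, a glycerol-3-phosphate acyltransferase of the endoplasmic reticulum, at 8.82 and 8.95 in knock-in hearts, against 8.63 and 8.60 in wild-type hearts. Its difference of 0.27 (adjusted p of 0.609) was opposite in sign to that of Gpam, the mitochondrial enzyme of the same step. Agpat5 differed by -0.24, but by 0.09 and -0.03 with overlapping groups in its other probe sets. The last of these lay below the array medians, with its highest array at 4.70. The monoacylglycerol acyltransferase Mogat2 differed by 0.22 and Gpat2 by -0.16. Gpat4 and Agpat1, chosen for their roles after their values were seen, differed by 0.05 and 0.08.

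Among 13 lipid phosphate phosphatases and diacylglycerol kinases, which interconvert phosphatidic acid and diacylglycerol beside the lipins, 0 reached that level in either direction. The background was 4.4% higher and 2.99% lower. The phosphatase gene Plpp2 differed by 0.28, the kinase genes Dgke and Dgki by -0.24 and -0.26, and the phosphatase gene Plpp1 by -0.14. The median of this list was -0.07.

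The phospholipid branch held 19 measured genes, of which 4 were higher and 1 lower at an unadjusted p under 0.05 (background 4.4% and 2.99%). Cds1, which encodes a CDP-diacylglycerol synthase and draws on the same phosphatidic acid as the lipins, stood at 6.73 and 6.68 in knock-in hearts, against 5.912 and 6.004 in wild-type hearts. Both knock-in arrays lay above both wild-type arrays, at a 1.68-fold higher level in knock-in hearts (difference 0.75, adjusted p of 0.205 from limma). The other Cds1 probe set differed by 0.33. Crls1, the cardiolipin synthase at the end of that branch in mitochondria, differed by 0.33, and by 0.10 with overlapping groups in its other probe set. Of the choline kinase genes, Chka differed by 0.38 and Chkb by -0.30.

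Acyl-CoA supply and desaturation held 18 measured genes, 3 of them higher and 0 lower at an unadjusted p under 0.05 (background 4.4% and 2.99%). The 3 were the stearoyl-CoA desaturase genes Scd2 (0.48) and Scd1 (0.46) and the acyl-CoA synthetase gene Acsl6 (0.36). Scd1 stood at 8.27 and 8.66 in knock-in hearts, against 8.05 and 7.95 in wild-type hearts. The other Scd1 probe set differed by 0.10 and those of Scd2 by 0.20 and -0.05, all with overlapping groups. This Scd1 probe set and the last Scd2 one lay below the array medians, with their highest arrays at 4.38 and 3.92. The acyl-CoA synthetase gene Acsl3 differed by -0.27, but by -0.0050 and -0.0067 with overlapping groups in its other probe sets. These others lay below the array medians, with their highest arrays at 3.35 and 4.09. Acsl1 was not analysed here.

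**Figure D4:**
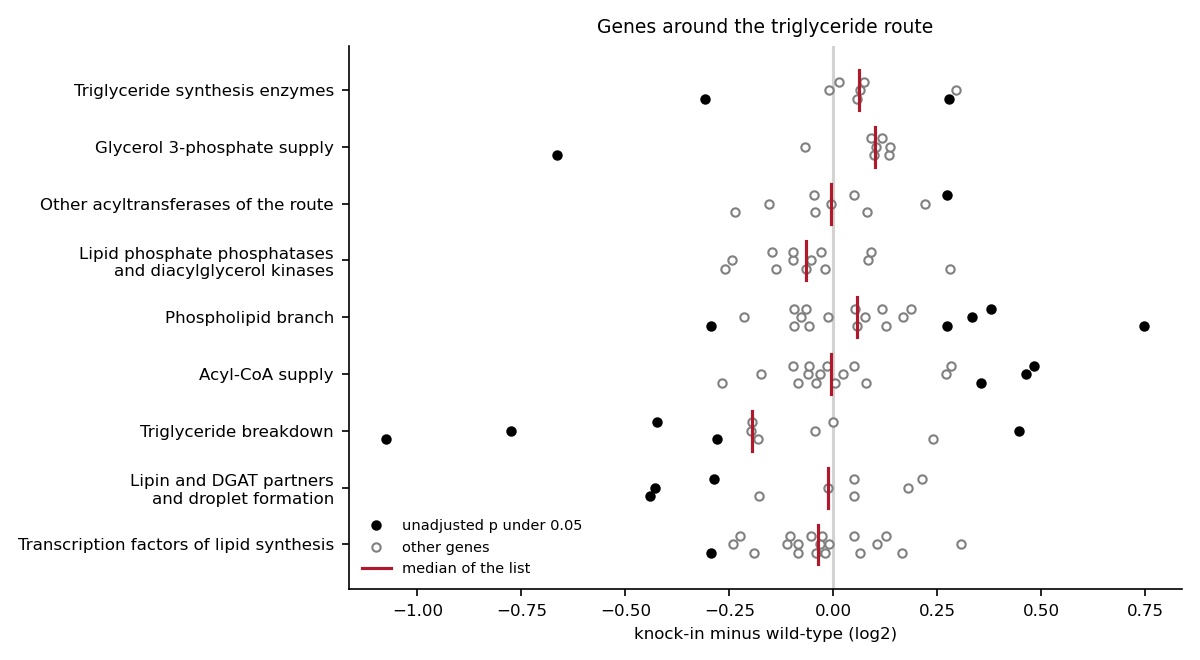
Knock-in minus wild-type differences on the log2 scale for the measured genes of 9 lists, 1 row per list with the triglyceride synthesis enzymes on top. Filled circles have an unadjusted limma p under 0.05, open circles do not, and red bars are list medians. The breakdown list has the lowest median, -0.20, with Angptl4 and Lipe farthest to the left.

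In the opposing limb, triglyceride breakdown, the groups did not overlap in 9 of 11 genes, compared with 4 of the 8 synthesis enzymes, a contrast that was not tested, and none of the 11 passed. Of them, 7 were lower in both knock-in arrays and 2 higher (background 17% and 19.6%), and the median difference was -0.20. The list also holds lipase inhibitors, Angptl4 among the lower and G0s2 among the higher genes, so these counts give no direction for breakdown itself. Lipe, the hormone-sensitive lipase, stood at 7.98 and 7.86 in knock-in hearts, against 8.80 and 8.59 in wild-type hearts (difference -0.78, adjusted p of 0.226 from limma). The other Lipe probe set differed by 0.01 with overlapping groups, but lay below the array medians, with its highest array at 4.46. Mgll, the monoglyceride lipase, stood at 11.41 and 11.58 in knock-in hearts, against 11.96 and 11.88 in wild-type hearts (-0.42). The other 3 Mgll probe sets differed by -0.48, -0.22 and -0.01, the last of them below the array medians. G0s2, whose protein inhibits the adipose triglyceride lipase, had the opposite sign, at 10.69 and 10.79 in knock-in hearts, against 10.21 and 10.38 in wild-type hearts (0.45). Angptl4, a secreted inhibitor of lipoprotein lipase, differed by -1.07 by its brighter probe set. Its other probe set differed by -0.06 with overlapping groups, and both averaged by -0.57. That other probe set lay below the array medians, at 3.26 and 3.40 in knock-in hearts, against 3.59 and 3.19 in wild-type hearts. Pnpla2, which encodes the adipose triglyceride lipase and was chosen for its role after its value was seen, differed by -0.20. Abhd5, the other gene higher in both knock-in arrays, differed by 0.24 and was also chosen after its value was seen. The background at an unadjusted p under 0.05 was 4.4% higher and 2.99% lower. Of the 9 measured genes of lipin and DGAT partners and droplet formation, 0 were higher and 3 lower at that level. They were Fitm2, which partitions triglyceride into droplets (-0.44), and the droplet coat genes Plin2 (-0.43) and Plin5 (-0.29). Fitm2 stood at 11.20 and 11.32 in knock-in hearts, against 11.70 and 11.70 in wild-type hearts. Mtor, a kinase that phosphorylates lipin 1, differed by 0.21, but by 0.11 and -0.07 with overlapping groups in its other probe sets. The last of these lay below the array medians.

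Among 20 measured transcription factors and cofactors of lipid synthesis, 0 were higher and 1 lower at unadjusted p under 0.05 (background 4.4% and 2.99%). That gene was Ppargc1b, the coactivator PGC-1β, at 10.95 and 11.01 in knock-in hearts, against 11.18 and 11.36 in wild-type hearts (-0.29, adjusted p of 0.605 from limma). The carbohydrate response factor gene Mlxipl differed by -0.19, and Srebf1, whose product SREBP-1 is known to activate Gpam in liver, by -0.24. Insig2, which retains SREBP precursors in the endoplasmic reticulum, differed by 0.16. Srebf1 stood at 9.28 and 9.15 in knock-in hearts, against 9.30 and 9.61 in wild-type hearts, a smaller difference between the groups than between the wild-type arrays.

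The genes whose profile over the 4 arrays was most like that of Gpam were Nudc, Stmn1, Erdr1 and Ehbp1, out of 9095 genes with a mean above the median. The measure was the root mean square difference between profiles after each gene was centred on its own mean, and it ran from 0.0098 for Nudc to 0.0173 for Ehbp1. Nudc stood at 10.62 and 10.68 in knock-in hearts, against 10.94 and 10.96 in wild-type hearts. For Dgat1 the closest were Atcayos, Hspb11, Eml1 and Nrtn, with values from 0.0101 to 0.0178. With 4 arrays, so many genes compete for a match that these names describe likeness only.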

How the data were processed

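The authors deposited log2 expression values made with RMA in Affymetrix Expression Console, per the submitters' processing notes. Its version and the genome build are not given in the sources used here. Per the series' design text and the labels, the wild-type arrays also served as controls for GSK-3alpha knock-in hearts, which are not analysed here, and the 4 arrays used here were normalized as a set of their own. RMA gives no detection call. Array medians lay between 5.97 and 6.04, and the number of arrays limits the precision.

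Of 45101 probe sets, 64 were controls, 34945 had 1 symbol in the platform annotation, 932 several and 9160 none. Older symbols were replaced by those of a GRCm38.p6 RefSeq table, matched on Entrez identifier for 34741 of the probe sets. For every gene, the probe set of highest mean stood for the gene. The test was that of limma 3.58.1 (lmFit, eBayes; R 4.3.3), two-sided, and p-values were adjusted by Benjamini-Hochberg across 18193 genes, or across 45037 probe sets where a single probe set is given, at a threshold of 0.05. The test was tried on simulated data.

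The members and lists were chosen with earlier results of these data known. Named were all members, up to 4 genes of smallest p per list, and the 4 genes most like each of the 2 members of smallest p. Some further listed genes were named after their values were seen. Lists have no test of their own. Of the listed genes, those with no probe set of a single symbol, such as Gk and Plin1, were not analysed here. Markers of skeletal muscle, fibroblasts, endothelial cells and macrophages had median differences of 0.03, 0.03, -0.12 and 0.07. Groups and replicate numbers came from the titles.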

Additional observations from a re-analysis of the deposited data

How the results depend on the processing

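No member passed under any of the 13 alternatives run for the gene test, and no member probe set under the 8 run for probe sets. Deviations of same-numbered arrays from their group means correlated at -0.03 over genes, so the numbers were not taken to pair the arrays. The fit with the replicate number as a block left 0 members called, 1 instead of 2 at an unadjusted p under 0.05 and 0 list genes called. Gpam stayed lower throughout, from -0.56 with averaged probe sets to -0.27 with arrays centred, with adjusted p-values from 0.153 to 1.0, and Lpin1 stayed higher, from 0.03 to 0.10. Some members changed sign. Dgat1 was at -0.172 when probe sets ending in _s_at or _x_at were avoided, Lpin2 at -0.0103 with the probe set listed first and Agpat3 at 0.0288 with arrays centred. That Dgat1 value is of 1445229_at, with a mean of 6.10, near the array medians. That Lpin2 value is of 1446316_at, with a mean of 3.59, below them. Agpat3 was also at -0.269 with averaged probe sets (unadjusted limma p of 0.0257) and -0.240 with the one listed first, and averaging put Dgat1 at 0.0534 and Lpin2 at 0.112. Leaving out 1 array at a time, Agpat2 ran from -0.0138 (without wild-type 1) to 0.160, Lpin3 from -0.0739 (without knock-in 1; -0.0196 without wild-type 2) to 0.103, and Dgat2 from -0.0719 (without wild-type 2) to 0.202. With the probe set listed first, Gpd1 (-0.0965, and -0.0316 with averaged probe sets), Plpp2 (-0.0191), Chka (-0.259) and Dgke (0.0873) also turned. Of these probe sets, those of Plpp2 and Chka lay below the array medians and those of Gpd1 and Dgke above. Members whose groups did not overlap numbered 4 (background 19.6% higher and 17% lower). They numbered 3 with averaged probe sets and with _s_at and _x_at probe sets avoided. Without any 1 array they numbered 5 to 7, where a lone array overlaps less easily. The shares over all genes under these alternatives are not given here, so these counts cannot be judged against them. Genes passing over all genes numbered 1, and 0 to 22 over the alternatives. Among all listed genes none passed, but 12 did with an intensity trend and robust prior, 7 with each of centred arrays, averaged probe sets and repeated quantile normalization, and 4 when only genes above the median were tested. None of these was in the 8 lists of the route, and why the count moved was not tested. Centring the arrays moved the median of all genes to 0.04.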
